A study of Mus musculus with 23 samples.

Results

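Wounds in the back skin of vehicle-treated mice, harvested 3 days after injury, were compared with back skin of the same arm labelled day 0, which is taken here as intact skin. The libraries were chosen by their labels alone, 3 control libraries at day 3 and 3 control libraries at day 0, so 6 of the 23 libraries of the series were compared and all genes were considered. Mice of both groups were 8 to 12 weeks old and carried HTNFki/ki together with Leprdb/db. Leprdb/db mice lack the signalling form of the leptin receptor and become obese and diabetic. Back fur had been shaved and chemically removed, and 4 full-thickness wounds of 6 mm were made through the panniculus carnosus, the thin muscle sheet under the skin fat, and covered with a transparent dressing. Tissue was collected with a punch of 8 mm, wider than the wound. The control mice received tramadol after wounding and PBS, the vehicle, under the skin. Adalimumab, an antibody against TNF given at 20 mg/kg in the other arm of the study, was not given to them. Total RNA was made into stranded libraries and read as single reads of 50 bases. Day 0 and day 3 libraries carry the same 3 label numbers, here replicates 1, 2 and 3, and the names of their columns share a further number in the same pairs, read here as 1 animal sampled on both days, although no label states it.

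Skin repair starts with a clot, followed by the entry of neutrophils and then of blood monocytes, which become macrophages in the wound. Keratinocytes at the wound edge switch from making barrier proteins to migrating and dividing, while fibroblasts secrete a provisional and then a collagen-rich matrix. In diabetic mice the inflammatory stage is known to be prolonged, and TNF, which acts through its receptors on the transcription factor NF-kB, is among the signals of that stage.

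The 6 libraries held 35490047 to 37494760 counts, and 23083 of the 56379 genes in the table passed the filter on low counts. Levels are given as CPM, read counts scaled to library size, with the values of replicates 1, 2 and 3 in that order. Changes are log2 ratios of day 3 to day 0 ± their standard error (n = 3 libraries in each group), tested with edgeR's quasi-likelihood test and adjusted by the Benjamini-Hochberg method over all 23083 genes, with adjusted p under 0.05 as the threshold for the words rose and fell. The standard error was worked back from the change and its test, whose estimate of spread drew on all 23 libraries of the series. Because every library is a piece of whole tissue, fewer cells of a type and less RNA per cell cannot be told apart. The labelled tissue was checked against its markers at day 0, where the keratin gene Krt14 stood at 1212, 1235 and 1378 CPM, the fat hormone gene Adipoq at 837, 651 and 554 CPM and the muscle actin gene Acta1 at 5411, 2903 and 7741 CPM.

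A pair of libraries stood apart from their group. Day 0 replicate 2 had far higher levels of early response and NF-kB target genes than the other intact skin libraries. In it Tnfaip3, a feedback inhibitor of NF-kB, was at 469 CPM against 26.1 and 47.7 CPM, and the early response gene Egr1 was at 316 CPM against 17.5 and 26.3 CPM. The summed level of the immediate early genes was 2581 CPM there against 592 and 774 CPM, and that of the epidermal differentiation genes 11288 CPM against 2867 and 3971 CPM. Day 3 replicate 2 held more epidermal, endothelial and fat transcripts than the other wounds. The sums there were 7347 CPM for basal epidermal genes against 1900 and 794 CPM, 728 CPM for endothelial genes against 114 and 223 CPM, and 4685 CPM for adipocyte genes against 1457 and 753 CPM. The part of these differences in the results was not tested, and a call that turned on 1 library is given with its value without it.

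**Figure D1:**
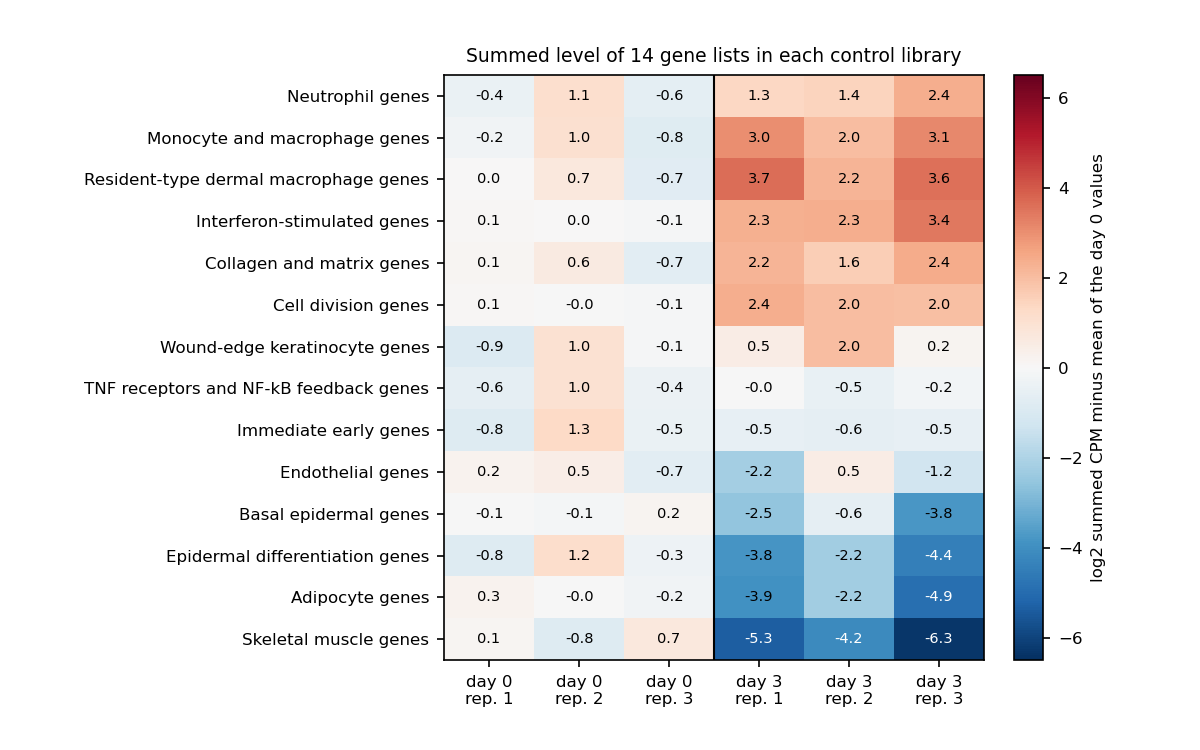
Heat map of the summed CPM of 14 gene lists in the 6 libraries, as log2 of the sum minus the mean of the day 0 values of that list. Macrophage, interferon, matrix and cell division sums were higher in each wound than in each intact skin library, those of adipocyte and skeletal muscle genes were lower, and day 0 replicate 2 and day 3 replicate 2 stand out within their groups.

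Between intact skin and the day 3 wound, 7986 of 23083 genes, 34.6%, passed the threshold. Of these, 4049 genes rose (17.5% of the genes tested) and 3937 fell (17.1%), with a median log2 change over all genes tested of -0.02. Counts of list members below are to be set against these shares. Changes were often large, since 1362 genes rose and 1997 fell by more than 2 on the log2 scale. For 7659 of the 7986 genes the groups did not overlap, and among all genes tested this held for 11522 (49.9%), 5666 higher (24.5%) and 5856 lower (25.4%) at day 3. Of the 7986 genes called, the direction was the same in replicate 1 for 7968, in replicate 2 for 7820 and in replicate 3 for 7959. These genes were called from the same libraries, so that agreement was largely fixed in advance. The median size of their change was 0.841 in replicate 2 against 1.43 and 1.44 on the log2 scale in replicates 1 and 3. With the label number as a block, in a fit to the 12 day 0 and day 3 libraries of both arms, 2463 genes rose and 2685 fell, 5148 in all, and the block refers to this fit unless the 6 control libraries are named. Without day 3 replicate 1 the count was 5115. Of the 7986 genes, 4352 kept their call in each of the 6 fits that left out 1 library.

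**Figure D2:**
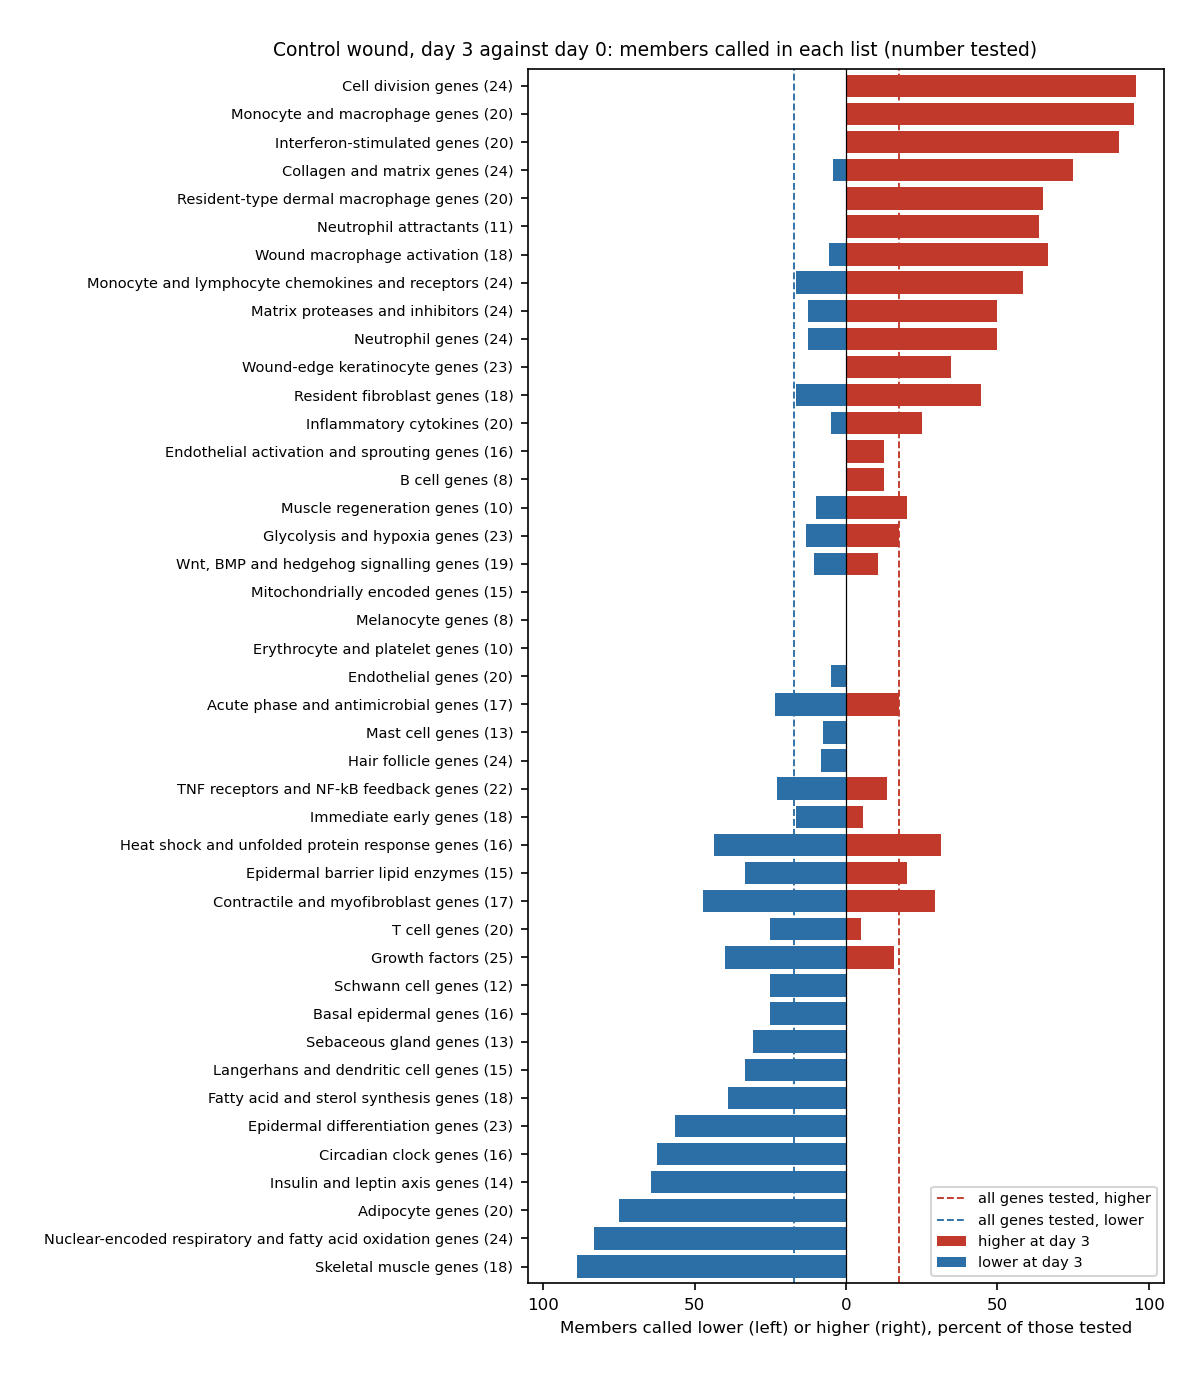
Percent of the tested members of each of 43 gene lists that rose (right) or fell (left) at day 3, with the shares over all genes tested, 17.5% and 17.1%, as dashed lines. Cell division, monocyte and macrophage, and interferon lists lay far to the right, and the skeletal muscle, nuclear respiratory and adipocyte lists far to the left.

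Neutrophils, the first blood cells to enter a wound, are drawn by chemokines that bind the receptor Cxcr2. The largest fitted change of any named gene was that of Cxcl5, one of these ligands. Its levels were 0.165, 0.165 and 0.0913 CPM at day 0 and 759.9, 216 and 241 CPM at day 3, without overlap (log2 change 11.45 ± 1.42, adjusted p = 2.68e-05). Cxcl3, a ligand of the same receptor, was at 0, 0.33 and 0.0304 CPM at day 0 and 34.9, 13.1 and 9.79 CPM at day 3 (log2 change 7.26 ± 1.78, adjusted p = 0.00483). Pf4 and Ppbp, chemokines stored in platelets and also made by some macrophages, rose too, Pf4 from 9.7, 19.2 and 3.99 to 335, 147 and 299 CPM (log2 change 4.57 ± 0.54, adjusted p = 1.81e-05). Ppbp rose from 0.992, 0.578 and 0.852 to 40.2, 28.6 and 14 CPM (log2 change 5.09 ± 1.04, adjusted p = 0.00144). Alox5 and Alox5ap, which start the synthesis of leukotrienes, and Lta4h, which makes leukotriene B4, also rose, with log2 changes of 2.77, 3.41 and 0.60, the last at adjusted p = 0.0564 with the block. Cxcl1 and Cxcl2, further ligands of Cxcr2, did not pass. Cxcl1 was at 2.01, 55.1 and 1.95 CPM at day 0 and 34.3, 24.6 and 19.4 CPM at day 3 (log2 change 0.41 ± 1.48, adjusted p = 0.857), and without day 0 replicate 2 its log2 change was 3.75 at adjusted p = 0.119. Cxcl2 was at 0.386, 14.3 and 0.517 CPM at day 0 and 13.7, 14.4 and 10.8 CPM at day 3 (log2 change 1.35 ± 1.35, adjusted p = 0.464), and without that library its log2 change was 4.87 at adjusted p = 0.0362. In all, 7 of 11 neutrophil attractant genes rose and none fell, against 17.5% and 17.1% of all genes, with a median log2 change of 2.77. All 7 kept their call without any 1 library.

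Among 24 neutrophil genes, 12 rose and 3 fell, 50% and 12.5% against 17.5% and 17.1% of all genes tested. The formyl peptide receptor genes, which sense bacterial peptides and tissue damage, were among those that rose. Fpr1 was at 0.0551, 0.0826 and 0.0609 CPM at day 0 and 7.67, 4.52 and 19.2 CPM at day 3 (log2 change 7.23 ± 0.78, adjusted p = 1.07e-05). Fpr2 was at 0.248, 0.193 and 0.0913 CPM at day 0 and 15.2, 9.92 and 15.9 CPM at day 3 (log2 change 6.23 ± 0.58, adjusted p = 3.95e-06). Csf3r, the receptor for the growth factor of neutrophils, went from 2.45, 5.56 and 2.13 to 29.1, 39 and 71 CPM (log2 change 3.78 ± 0.43, adjusted p = 1.39e-05). No library of either group overlapped the other for these 3 genes. S100a9, a subunit of calprotectin, rose from 0.992, 1.4 and 0.304 to 8.4, 46.4 and 18.1 CPM (log2 change 4.74 ± 0.95, adjusted p = 0.00129). Its partner S100a8 was at 39.1, 41.4 and 21.2 CPM at day 0 and 26.4, 140.1 and 32.6 CPM at day 3 and overlapped (log2 change 0.97 ± 0.81, adjusted p = 0.375). Genes packed into granules while neutrophils mature in the bone marrow were near 0 in both groups. Ly6g, the defining surface marker of mouse neutrophils, was at 0 in all intact skin libraries and at 0.0293, 0.161 and 0.223 CPM in the wounds, and Ltf, Camp and Ngp did not exceed 0.193 CPM in any library. Which cells held the transcripts of the 12 genes that rose was not tested. All 12 kept their call without any 1 library. The 3 that fell did not: they were Il1r2, Hcar2 and Asprv1, which skin cells also express, and without day 0 replicate 2 none of the 24 fell, against 1 without day 3 replicate 1 or 3.

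Of 24 chemokines and receptors for monocytes and lymphocytes, 14 rose and 4 fell, with a median log2 change of 2.32. These were 58.3% and 16.7%, against 17.5% and 17.1% of all genes tested. The receptors that bring monocytes into tissue were among those that rose. Ccr2, which responds to Ccl2, went from 23.4, 40.9 and 12.5 to 339, 224 and 812 CPM (log2 change 4.16 ± 0.75, adjusted p = 0.000578). Ccr1 went from 4.71, 6.66 and 1.7 to 275, 106 and 239.5 CPM (log2 change 5.56 ± 0.55, adjusted p = 6.36e-06). Chemokines that draw monocytes rose as well, with log2 changes of 2.83 for Ccl2, 3.12 for Ccl7, 4.96 for Ccl12, 4.34 for Ccl3 and 3.99 for Ccl4. At the highest levels of these were Ccl6, at 61.4, 146 and 38.1 CPM at day 0 and 4094, 1225 and 2889 CPM at day 3 (log2 change 5.06 ± 0.54, adjusted p = 1.04e-05), and Ccl9, at 68.1, 164 and 39.8 CPM at day 0 and 2274, 702 and 1842 CPM at day 3 (log2 change 4.15 ± 0.50, adjusted p = 2.16e-05). Ccl27a, Cxcl14 and Ccl20 were among the 4 that fell. Ccl27a, which draws T cells to skin, fell from 82.7, 63.4 and 115 to 5.88, 24.4 and 3.84 CPM (log2 change -2.93 ± 0.78, adjusted p = 0.00784, but 0.0665 with the block). Cxcl14 fell from 157, 168 and 244 to 13.1, 54.2 and 4.76 CPM (log2 change -2.98 ± 0.84, adjusted p = 0.0114 and 0.059 without day 3 replicate 1). Ccl20, which draws Ccr6-bearing cells, was at 0.937, 96.1 and 6.54 CPM at day 0 and 0.176, 0.269 and 0.139 CPM at day 3 (log2 change -7.44 ± 1.58, adjusted p = 0.00191, log2 change -4.20 without day 0 replicate 2). Its groups did not overlap. The interferon-gamma-inducible ligands Cxcl9 and Cxcl10 did not pass the threshold. Cxcl9 was at 19.7, 13.2 and 10.9 CPM at day 0 and 1.32, 7.31 and 8.09 CPM at day 3 (log2 change -1.39 ± 0.58, adjusted p = 0.0738). Cxcl10 was at 6.14, 20.9 and 6.7 CPM at day 0 and 3.34, 14.3 and 15 CPM at day 3 (log2 change -0.05 ± 0.59, adjusted p = 0.962), and its groups overlapped. Of the 4 genes that fell, 2 were called with the block and 2 without day 3 replicate 1.

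The cytokines that open inflammation showed no such common rise, and their reading turned on day 0 replicate 2. Tnf was at 0.496, 6.14 and 0.791 CPM at day 0 and 0.527, 0.887 and 0.529 CPM at day 3. It was called as lower (log2 change -1.93 ± 0.69, adjusted p = 0.0384, but 0.276 with the block and 0.116 to 0.953 without day 0 replicate 2, day 3 replicate 1 or day 3 replicate 3), but its log2 change was 0.05 without day 0 replicate 2. For Il1b the levels were 0.441, 15.1 and 0.487 CPM at day 0 and 5.38, 13.1 and 8.37 CPM at day 3 (log2 change 0.75 ± 1.14, adjusted p = 0.647), and without that library the log2 change was 4.30 at adjusted p = 0.0158. Il6 stood at 0.248, 10.3 and 0.365 CPM at day 0 and 36.4, 12.2 and 7.71 CPM at day 3 (log2 change 2.37 ± 1.66, adjusted p = 0.284), with a log2 change of 5.95 at adjusted p = 0.0546 without that library. For Il1b and Il6 the groups overlapped through day 0 replicate 2 alone. Of 20 cytokine genes tested, 5 rose and 1, Tnf, fell, 25% and 5% against 17.5% and 17.1% of all genes tested. Osm, a cytokine of the interleukin 6 family made by myeloid cells, rose from 0.0551, 0.798 and 0.122 to 11.4, 4.44 and 6.4 CPM (log2 change 4.49 ± 0.96, adjusted p = 0.00195). Il10, which restrains macrophages, rose from 0.248, 0.963 and 0.274 to 1.55, 2.15 and 4.76 CPM (log2 change 2.50 ± 0.57, adjusted p = 0.00295). Csf1, the growth factor of macrophages, rose from 36.4, 78.5 and 32.6 to 149, 89.9 and 139 CPM (log2 change 1.35 ± 0.31, adjusted p = 0.00324). Il24 was at 0 in all 3 intact skin libraries and at 0.585, 6.75 and 2.31 CPM in the wounds, at least 113-fold higher when the day 0 group is set to a floor of 3 counts (adjusted p = 0.00581). Il17a had no counts in the 6 libraries. HTNFki/ki mice carry an altered TNF gene, and nothing in the sources used here says how its reads were counted.

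**Figure D3:**
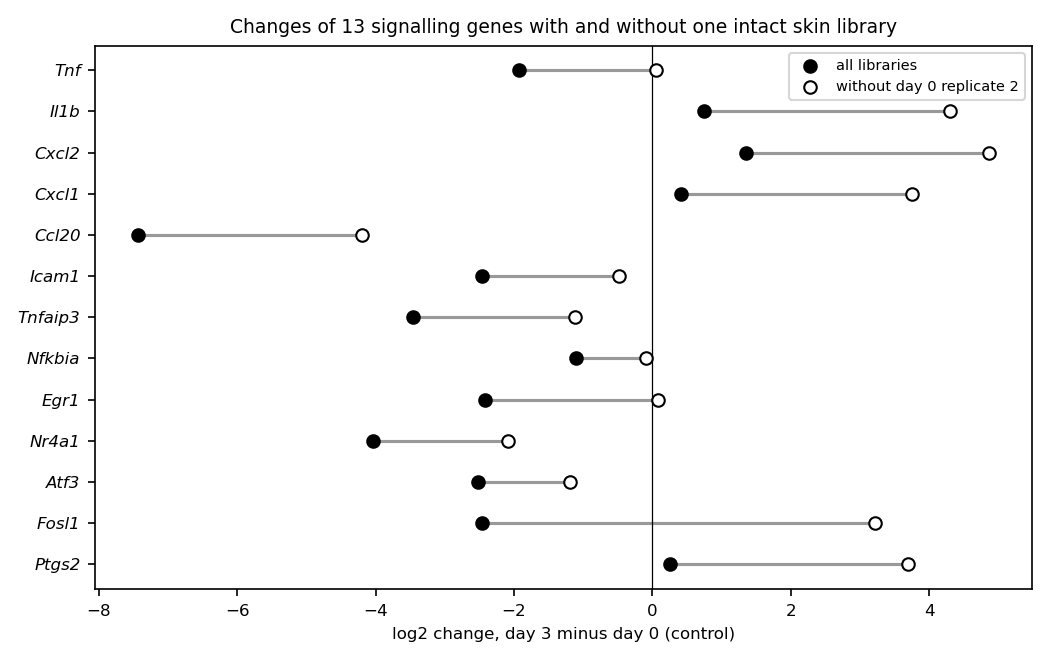
Log2 change from day 0 to day 3 of 13 signalling genes with all 6 libraries (filled circles) and without day 0 replicate 2 (open circles). Leaving out that library moved every one of the 13 upward, Il1b from 0.75 to 4.30 and Tnf from -1.93 to 0.05.

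TNF receptors and the feedback genes of NF-kB, 22 in all, showed 3 genes that rose and 5 that fell. These were 13.6% and 22.7%, against 17.5% and 17.1% of all genes tested. Tnfrsf1b, the receptor found mainly on leukocytes and vessels, rose from 19.3, 45.7 and 11.5 to 87.2, 55.5 and 111 CPM (log2 change 1.73 ± 0.44, adjusted p = 0.00575). The other receptor gene, Tnfrsf1a, was at 109.6, 129 and 109.9 CPM at day 0 and 155, 123 and 135 CPM at day 3 (log2 change 0.25 ± 0.21, adjusted p = 0.385). Ripk1 and Tradd, which carry the signal from that receptor, rose with log2 changes of 0.92 and 0.95, and the adaptor gene Traf2 fell from 24.7, 26.5 and 27.2 to 13.8, 15.9 and 16.6 CPM (log2 change -0.76 ± 0.21, adjusted p = 0.00879). These 4 calls held without any 1 library, but their adjusted p was 0.0588 to 0.105 with the block in a fit to the 6 control libraries alone. The other 4 genes that fell were Tnfaip3, Tnip1, Rel and Icam1. Icam1, an adhesion molecule induced by NF-kB, was at 19, 219.6 and 27.1 CPM at day 0 and 15.8, 17.5 and 15.1 CPM at day 3 (log2 change -2.46 ± 0.60, adjusted p = 0.00495, but 0.131 with the block and 0.182 without day 0 replicate 2), and its log2 change was -0.48 without day 0 replicate 2. Without that library 5 of the 22 rose and 1 fell, without day 3 replicate 1 the falls were 3, and with the block 3 rose and 1 fell. In the blocked fit to the 6 control libraries alone edgeR called none of the 22, of which 6 had an unadjusted p under 0.05, while DESeq2 with all libraries called 3 as higher and 6 as lower.

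Immediate early genes, which respond to a stimulus without new protein synthesis, gave few calls. Of 18, 1 rose and 3 fell, 5.56% and 16.7% against 17.5% and 17.1% of all genes tested. Without day 0 replicate 2 none fell, without day 0 replicate 1 the falls were 5, and 1 fell without day 3 replicate 1 or with the block. Klf2, a factor known from quiet endothelium and leukocytes, was the one that rose, from 13.6, 11.6 and 7.0 to 55.4, 33.6 and 97.6 CPM (log2 change 2.53 ± 0.47, adjusted p = 0.000693). Nr4a1 was at 25.8, 314 and 40.9 CPM at day 0 and 7.96, 9.52 and 5.56 CPM at day 3 (log2 change -4.05 ± 1.04, adjusted p = 0.00675, but 0.061 with the block and 0.0791 without day 0 replicate 2) and its log2 change was -2.08 without day 0 replicate 2. Egr1, called as lower (log2 change -2.42 ± 0.91, adjusted p = 0.0475, but 0.164 with the block and 0.141 to 0.951 without day 0 replicate 2, day 3 replicate 1 or day 3 replicate 3), had a log2 change of 0.08 without that library. Fos was at 7.82, 77.6 and 11.7 CPM at day 0 and 22.4, 36.3 and 21 CPM at day 3 (log2 change -0.28 ± 0.68, adjusted p = 0.778). Its day 0 replicate 2 lay above every wound, and the other intact skin libraries lay below every wound.

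Monocyte and macrophage genes rose almost throughout: 19 of 20, with a median log2 change of 3.35, and none fell. Ms4a4c, found in monocytes of the inflammatory type, went from 0.358, 0.908 and 0.639 to 34.6, 46.4 and 173 CPM (log2 change 7.05 ± 0.76, adjusted p = 1.01e-05). The receptor for antibody Fcgr1 rose from 2.4, 5.86 and 2.16 to 102, 72 and 182 CPM (log2 change 5.09 ± 0.54, adjusted p = 9.27e-06). Itgam, the integrin shared by myeloid cells, rose from 10.9, 18.2 and 6.24 to 261, 113 and 233 CPM (log2 change 4.10 ± 0.43, adjusted p = 8.35e-06). Ms4a6d rose from 7.66, 15.8 and 3.93 to 312, 149 and 335 CPM (log2 change 4.86 ± 0.45, adjusted p = 3.95e-06). No intact skin library reached a wound library for any of these 4. Lyz2, the lysozyme gene of myeloid cells, was at 291, 782 and 132 CPM at day 0 and 4009, 1535 and 4038 CPM at day 3 (log2 change 2.99 ± 0.67, adjusted p = 0.00266). The most widely used markers gave smaller changes with wider errors, Cd68 from 24.8, 98 and 14.2 to 151, 119 and 209.5 CPM (log2 change 1.81 ± 0.60, adjusted p = 0.0271 and 0.0554 to 0.106 without day 0 replicate 1, day 0 replicate 3, day 3 replicate 1 or day 3 replicate 3). Adgre1 rose from 24.2, 109.8 and 16 to 249.6, 139 and 249 CPM (log2 change 2.09 ± 0.78, adjusted p = 0.0454, but 0.0765 with the block and 0.103 to 0.151 without day 0 replicate 1, day 0 replicate 3, day 3 replicate 1 or day 3 replicate 3). Lgals3, which keratinocytes also make, did not pass (log2 change 0.09 ± 0.26, adjusted p = 0.816).

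Genes of macrophages that reside in the dermis also rose, 13 of 20, with none lower, and all 13 kept their call without any 1 library. The mannose receptor gene Mrc1 was at 60.6, 138 and 33.2 CPM at day 0 and 1893, 649 and 1636 CPM at day 3 (log2 change 4.17 ± 0.46, adjusted p = 1.21e-05). Cd163, the scavenger receptor for haemoglobin, went from 32.1, 62.3 and 11.8 to 1234, 252 and 811 CPM (log2 change 4.43 ± 0.69, adjusted p = 0.000169). Lyve1 rose from 7.52, 14.5 and 1.92 to 309.9, 103 and 221 CPM (log2 change 4.73 ± 0.70, adjusted p = 0.000112). F13a1, which makes the clot-crosslinking factor XIII, rose from 56.7, 124 and 29.4 to 1845, 649.7 and 1374 CPM (log2 change 4.20 ± 0.52, adjusted p = 2.75e-05). C1qa, C1qb and C1qc, the chains of the first complement component, rose together with log2 changes of 3.54, 3.28 and 3.06. Not every gene of the list moved. Retnla was at 50.7, 46.2 and 27.4 CPM at day 0 and 28.4, 15.3 and 38.1 CPM at day 3 (log2 change -0.61 ± 0.96, adjusted p = 0.659). Timd4 was at 1.9, 1.38 and 0.639 CPM at day 0 and 1.2, 1.16 and 3.31 CPM at day 3 (log2 change 0.53 ± 0.56, adjusted p = 0.488). Mgl2 was at 11.7, 27.2 and 8.25 CPM at day 0 and 25.8, 11.6 and 29.5 CPM at day 3 (log2 change 0.50 ± 0.50, adjusted p = 0.462).

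Of 18 genes of macrophage activation in wounds, 12 rose and 1 fell. Of the 12 rises, 8 kept their call without any 1 library. Spp1, the gene of osteopontin, was at 4.55, 8.81 and 7.21 CPM at day 0 and 338, 345 and 291 CPM at day 3 (log2 change 5.56 ± 0.41, adjusted p = 7.33e-07), and Cd300lf went from 0.276, 0.44 and 0.274 to 45.8, 24.4 and 30.9 CPM (log2 change 6.66 ± 0.62, adjusted p = 3.95e-06). Hmox1, which degrades haem, rose from 25.4, 82.5 and 40.5 to 2339.8, 423 and 431 CPM (log2 change 4.43 ± 0.68, adjusted p = 0.000158). The highest wound level of Hmox1 was that of replicate 1, as for Arg1. Arg1, the arginase of alternatively activated macrophages, was at 25.9, 23.3 and 47.1 CPM at day 0 and 348, 100.3 and 98.2 CPM at day 3 (log2 change 2.51 ± 0.62, adjusted p = 0.0053, but 0.0863 with the block and 0.0529 without day 3 replicate 1). Nos2, which competes with it for arginine, was at 1.93, 2.94 and 1.67 CPM at day 0 and 13.3, 8.23 and 13.5 CPM at day 3, without overlap and without passing the threshold (log2 change 2.42 ± 1.22, adjusted p = 0.132). Acod1, which makes itaconate, rose from 0.276, 0.303 and 0.0609 to 2.08, 5.84 and 8.26 CPM (log2 change 4.63 ± 0.85, adjusted p = 0.000624). Chil3 rose from 6.72, 9.33 and 2.34 to 71.4, 84.3 and 59.8 CPM (log2 change 3.55 ± 0.91, adjusted p = 0.00636). The arginine transporter Slc7a2 was the 1 that fell (log2 change -1.77 ± 0.48, adjusted p = 0.0088), and 2 fell without day 0 replicate 1.

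**Figure D4:**
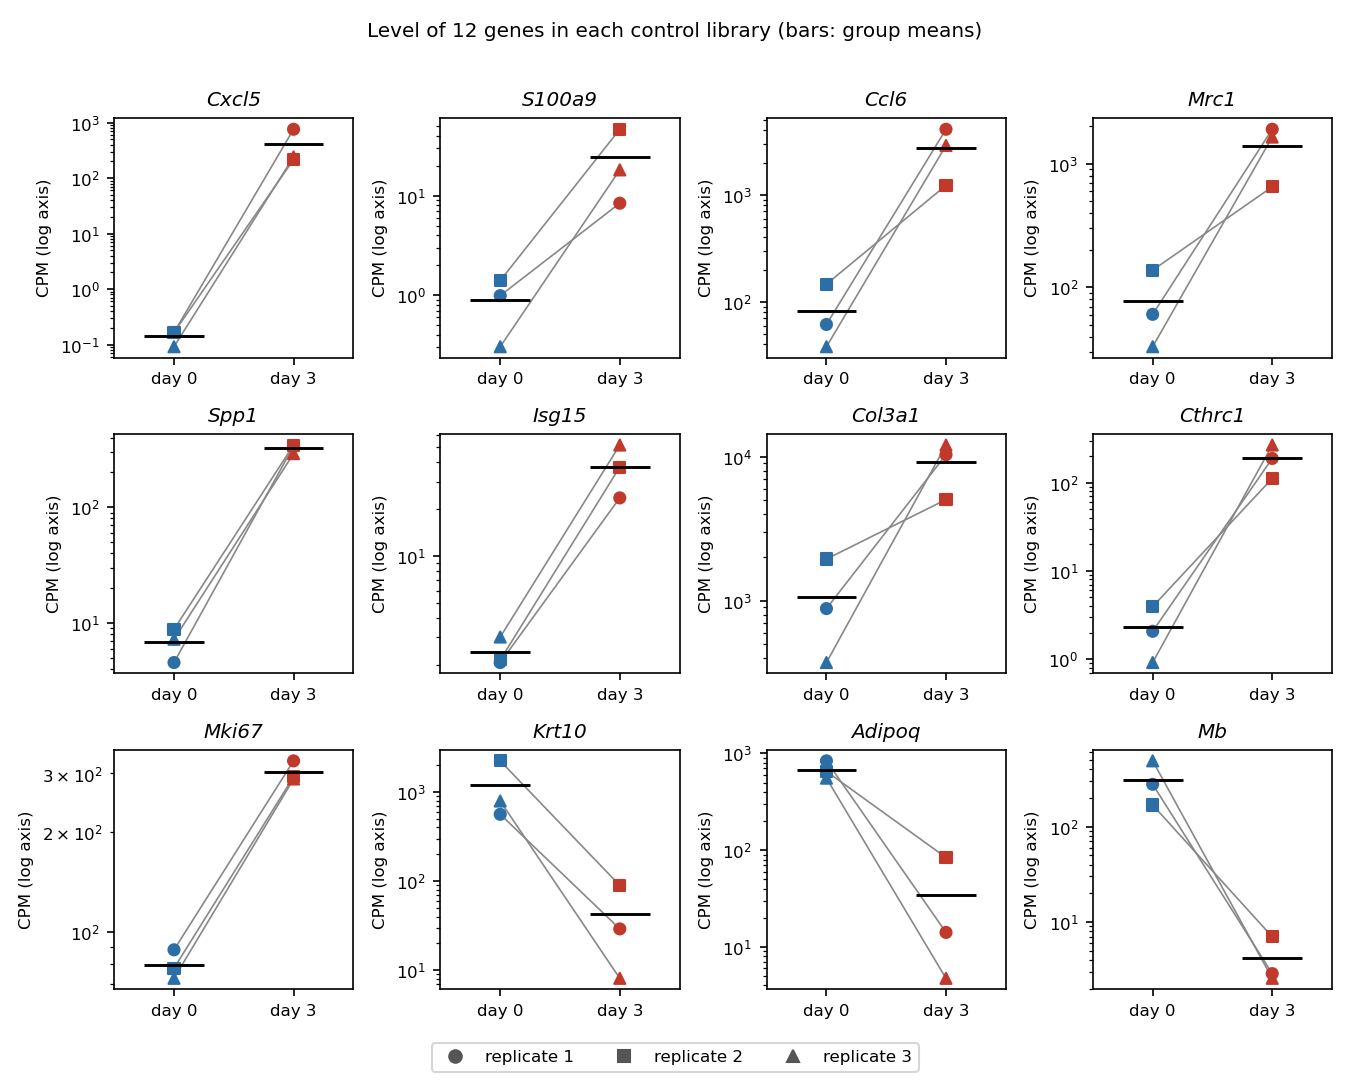
CPM of 12 genes in the 3 intact skin and 3 wound libraries on log axes, 1 point a library, with lines joining libraries of the same label number. Black bars are group means, and colours mark the days. Cxcl5, from at most 0.165 to at least 216 CPM, had the widest gap, and the groups do not overlap in any panel.

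Genes induced by interferons rose together: 18 of 20, with none lower and a median log2 change of 3.65. All 18 kept their call without any 1 library, and their groups did not overlap, against 24.5% of all genes tested that were higher without overlap. The list was named with earlier results of these data known, so its count is a description. Isg15, a ubiquitin-like protein, was at 2.07, 2.15 and 3.01 CPM at day 0 and 23.6, 37.4 and 51.7 CPM at day 3 (log2 change 3.96 ± 0.51, adjusted p = 3.72e-05). The sensors of double-stranded RNA followed, Oas1a from 3.69, 3.99 and 4.38 to 55.4, 34.3 and 108 CPM (log2 change 4.03 ± 0.52, adjusted p = 3.48e-05). Oas2 rose from 7.91, 6.47 and 5.57 to 96.7, 60.9 and 239 CPM (log2 change 4.31 ± 0.64, adjusted p = 0.00011). Oas3 rose from 0.689, 0.578 and 0.944 to 17.3, 16.1 and 41.5 CPM (log2 change 5.08 ± 0.68, adjusted p = 4.64e-05). Oas1a has close paralogs, so reads may be shared among them. Irf7, which amplifies the response, rose from 6.36, 5.92 and 4.87 to 54.6, 48.6 and 200.1 CPM (log2 change 4.14 ± 0.64, adjusted p = 0.000155). Mx1, which blocks viruses, rose from 2.78, 2.59 and 1.7 to 44.5, 47.1 and 101 CPM (log2 change 4.76 ± 0.70, adjusted p = 0.00011). Replicate 3 had the highest wound level of each of these genes. Gbp2, which responds to interferon gamma as well, was at 46.1, 42 and 36.4 CPM at day 0 and 33.6, 46.1 and 66.7 CPM at day 3 and did not pass (log2 change 0.23 ± 0.36, adjusted p = 0.646). Ifng itself had too few counts to be tested, with at most 0.213 CPM in any library.

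The interferon-stimulated response element, through which interferons induce many genes, contains a pair of GAAA letters spaced by 2 bases, so GAAANNGAAA was searched on both strands in the 250 bases before each gene's start in RefSeq's mouse promoters (build GRCm38.p6, older than the GRCm39 of the counts). Overlapping matches were counted. Of 32851 promoters, 978 held it, 2.98%. Among genes tested here that matched by symbol it was found in 483 of 14258 (3.39%), in 131 of 2782 genes that rose (4.71%) and in 61 of 2761 that fell (2.21%). Of the 20 interferon genes, 14 had a promoter in the table and 9 of these held the motif (64.3%). A match is a description of letters, not of binding. Stretches around the matches follow for 5 genes that rose and for Gbp2, which did not pass, 5′ to 3′ on the gene's strand with the matches in capitals, to show their number and place.
Isg15 (chr4:156200845-156200926, minus strand): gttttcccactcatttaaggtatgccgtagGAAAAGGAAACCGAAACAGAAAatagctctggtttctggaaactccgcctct
Ifit1 (chr19:34640755-34640843, plus strand): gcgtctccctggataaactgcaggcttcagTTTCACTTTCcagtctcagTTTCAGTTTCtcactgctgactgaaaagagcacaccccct
Ifit3 (chr19:34583343-34583446, plus strand): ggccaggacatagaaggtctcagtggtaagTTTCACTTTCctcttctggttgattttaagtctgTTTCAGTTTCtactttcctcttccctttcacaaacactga
Oas1a (chr5:120907526-120907575, minus strand): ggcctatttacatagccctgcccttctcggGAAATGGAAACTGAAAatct
Oas3 (chr5:120777695-120777764, minus strand): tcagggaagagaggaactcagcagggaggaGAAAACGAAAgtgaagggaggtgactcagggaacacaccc
Gbp2 (chr3:142620574-142620643, plus strand): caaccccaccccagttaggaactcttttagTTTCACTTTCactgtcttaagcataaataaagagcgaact
The matches of Isg15 overlap in 1 run. Its farthest match ends 68 bases and its nearest 56 bases before the start of the gene. Those of Ifit1 and Ifit3 are separate and lie on the other strand, and Oas1a has its nearest match 4 bases from the start. Gbp2, with 1 match 49 bases from its start, had a log2 change of 0.23, and Oas3, also with 1 match, 5.08.

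Most calls among dendritic and lymphoid genes turned on 1 library. Of 15 Langerhans and dendritic cell genes 5 fell, 33.3% against 17.1% of all genes tested. The falls were 1 without day 0 replicate 2, 1 without day 3 replicate 1, 3 without day 3 replicate 3 and 1 with the block. Cd207, the marker of Langerhans cells of the epidermis, was at 3.64, 38.6 and 4.87 CPM at day 0 and 0.41, 2.8 and 0.111 CPM at day 3 (log2 change -3.82 ± 1.38, adjusted p = 0.0396, but 0.0518 with the block and 0.124 to 0.281 without day 0 replicate 2, day 3 replicate 1 or day 3 replicate 3). Mfge8, which bridges dying cells to phagocytes, held its call, from 431, 539 and 205 to 49.2, 158 and 45 CPM (log2 change -2.22 ± 0.58, adjusted p = 0.00732). Ccr7, by which dendritic cells leave for lymph nodes, was at 0.413, 1.57 and 0.457 CPM at day 0 and 1.76, 2.26 and 2.34 CPM at day 3 (log2 change 1.37 ± 0.55, adjusted p = 0.061). Of 20 T cell genes, 1 rose and 5 fell, 5% and 25% against 17.5% and 17.1% of all genes tested. The falls were 1 without day 0 replicate 2 or day 3 replicate 1, 2 without day 3 replicate 3 and 3 with the block. The 1 that rose was Thy1, which fibroblasts also carry, from 31.8, 55.1 and 25.2 to 293, 232 and 254 CPM (log2 change 2.80 ± 0.36, adjusted p = 3.90e-05). Cd247, a chain of the T cell receptor complex, went from 2.37, 3.63 and 1.61 to 0.0878, 1.13 and 0.111 CPM (log2 change -2.50 ± 0.73, adjusted p = 0.0136 and 0.0606 to 0.0607 without day 3 replicate 1 or day 3 replicate 3). Cd3e was at 1.13, 1.68 and 1.61 CPM at day 0 and 0.0878, 0.968 and 0 CPM at day 3 (log2 change -2.04 ± 0.88, adjusted p = 0.0808). Among 13 mast cell genes only Mrgprb2, a receptor that triggers degranulation, fell, from 15.7, 24.5 and 15 to 0.556, 1.53 and 0.111 CPM (log2 change -4.64 ± 0.97, adjusted p = 0.00164). With the block 9 of the 13 fell, and without day 3 replicate 2, 10. The protease gene Mcpt4 was at 21.6, 76.8 and 5.45 CPM at day 0 and 2.28, 18 and 0.695 CPM at day 3 (log2 change -2.30 ± 1.10, adjusted p = 0.112, and 0.00943 with the block), and for each label number the wound was lower than the intact skin.

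Transcripts of the upper epidermal layers were lower in the wound. Of 23 genes of keratinocyte differentiation 13 fell and none rose, with a median log2 change of -2.83, against 17.1% of all genes. Krt10, the keratin of the suprabasal layers, went from 563, 2239 and 793 to 29.1, 89.4 and 8.09 CPM (log2 change -4.83 ± 1.32, adjusted p = 0.00933). Lor, the main protein of the cornified envelope, fell from 76.3, 646 and 84.5 to 2.37, 8.2 and 1.2 CPM (log2 change -6.10 ± 1.52, adjusted p = 0.00536). Flg2, related to filaggrin, fell from 125, 690.3 and 138 to 2.81, 7.93 and 0.668 CPM (log2 change -6.38 ± 1.54, adjusted p = 0.00446). Cdsn, which holds corneocytes together, fell from 60.1, 211 and 57.7 to 2.43, 15.8 and 1.59 CPM (log2 change -4.05 ± 0.90, adjusted p = 0.00255). The highest wound value of each lay below the lowest intact skin value, and day 0 replicate 2 had the highest level of all 4. Without day 0 replicate 2, 8 of the 23 fell, against 7 without day 3 replicate 1 and 8 without day 3 replicate 3, and 7 kept their call in every fit without 1 library. Lce1m and Slurp1, likewise made by differentiated keratinocytes, were among the genes with the largest falls, Lce1m from 99.5, 482 and 83.4 to 2.25, 3.33 and 0.584 CPM (log2 change -6.75 ± 1.50, adjusted p = 0.0026). Slurp1 fell from 1.29, 12.7 and 0.548 to 0, 0.0538 and 0 CPM (log2 change -7.79 ± 1.82, adjusted p = 0.00358). Its wounds were near 0 and day 0 replicate 2 was far the highest, so the size of the fall is uncertain. Lce1m belongs to a cluster of close copies, so its reads may be shared.

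Basal layer genes differed less clearly. Krt14 was at 1212, 1235 and 1378 CPM at day 0 and 374, 1672 and 153 CPM at day 3 (log2 change -0.80 ± 1.24, adjusted p = 0.651). Krt5 was at 3155, 2515 and 3629.97 CPM at day 0 and 615, 2682 and 230.5 CPM at day 3 (log2 change -1.40 ± 1.22, adjusted p = 0.397), with day 3 replicate 2 at the level of intact skin and the other wounds far below. Of 16 basal genes 4 fell, 25% against 17.1% of all genes tested. The falls were 11 without day 3 replicate 2, and between 1 and 2 without any other library. With the block 1 fell, and 6 with the block in the 6 control libraries alone. Dst, which anchors hemidesmosomes and is also made in muscle, held its call, from 977, 812 and 827 to 181, 314 and 125 CPM (log2 change -2.08 ± 0.34, adjusted p = 0.00028). Enzymes of barrier lipids fell in 5 of 15 cases and rose in 3, 33.3% and 20% against 17.1% and 17.5% of all genes tested. The falls were 1 or 2 without day 0 replicate 2, day 3 replicate 1 or day 3 replicate 3 and 2 with the block. In the blocked fit to the 6 control libraries alone 7 fell and none rose, with 10 of the 15 at an unadjusted p under 0.05. The lipoxygenase gene Aloxe3 went from 29.6, 73.5 and 29.5 to 2.17, 8.31 and 2.59 CPM (log2 change -3.34 ± 0.93, adjusted p = 0.0108, but 0.052 with the block and 0.0512 to 0.0557 without day 3 replicate 1 or day 3 replicate 3), whereas Ugcg, which makes glucosylceramide in many cell types, rose from 32.7, 99.96 and 34.4 to 208, 134 and 199 CPM (log2 change 1.70 ± 0.38, adjusted p = 0.00289).

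Genes switched on in keratinocytes at a wound edge rose in 8 of 23 cases, with none lower. The stefin A genes, small inhibitors of cysteine proteases present in keratinocytes and in myeloid cells, rose the most. Stfa1 was at 0.22, 0.55 and 0.304 CPM at day 0 and 53.1, 256 and 29.9 CPM at day 3 (log2 change 8.28 ± 1.57, adjusted p = 0.000822). Stfa3 was at 1.38, 4.82 and 2.44 CPM at day 0 and 57.9, 203 and 32.4 CPM at day 3 (log2 change 5.09 ± 1.33, adjusted p = 0.0073, but 0.0568 with the block). Further members of the same cluster, Cstdc4, Cstdc5, Cstdc6, Stfa2 and Csta3, were among the 15 largest rises, with Cstdc5 from 0.331, 1.21 and 0.609 to 139, 651 and 93.9 CPM (log2 change 8.67 ± 1.70, adjusted p = 0.00107). Csta3 was at 0 in intact skin and at 3.48, 14.8 and 1.84 CPM in the wounds, at least 236-fold higher over the floor of 3 counts. These genes are close copies of each other, so their separate levels are uncertain, and for each of the named ones day 3 replicate 2 was the highest wound. Itga5, the fibronectin receptor, rose from 29.3, 57.2 and 20 to 271, 151 and 185 CPM (log2 change 2.51 ± 0.41, adjusted p = 0.000251). Plaur, the receptor of urokinase, rose from 2.64, 9.19 and 2.47 to 48.4, 23 and 21.8 CPM (log2 change 2.70 ± 0.63, adjusted p = 0.00354). Itga5 and Plaur were highest in day 3 replicate 1, not in replicate 2, and which cells held their transcripts was not tested. The wound-edge keratins were not called: Krt6a was at 74, 118 and 157 CPM at day 0 and 82.6, 443 and 72 CPM at day 3 (log2 change 0.77 ± 1.18, adjusted p = 0.644). Krt6b was at 9.84, 17.7 and 20.4 CPM at day 0 and 27.4, 234 and 40.8 CPM at day 3 (log2 change 2.66 ± 1.32, adjusted p = 0.128). Krt16 was at 8.51, 251 and 17.8 CPM at day 0 and 52.9, 358 and 81.7 CPM at day 3 (log2 change 0.83 ± 1.41, adjusted p = 0.682). For Krt6a only day 3 replicate 2 lay above all intact skin libraries. For Krt16 day 0 replicate 2 lay above day 3 replicates 1 and 3, and the other intact skin libraries lay below every wound. The count was 4 without day 0 replicate 1, without day 0 replicate 3 or without day 3 replicate 2, and limma voom called 2 of the 23.

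Among appendage genes none rose. Of 24 hair follicle genes 2 fell (8.33%) and of 13 sebaceous gland genes 4 fell (30.8%), against 17.1% of all genes tested. The inner root sheath gene Krt25 was at 0.276, 23.3 and 0.517 CPM at day 0 and 0.117, 0.0538 and 0 CPM at day 3 (log2 change -7.08 ± 2.56, adjusted p = 0.0397, but 0.0576 with the block and 0.0882 to 0.468 without day 0 replicate 2, day 3 replicate 1, day 3 replicate 2 or day 3 replicate 3), so only day 0 replicate 2 stood high. Lhx2, a factor of follicle stem cells, was at 16.9, 17.8 and 26.5 CPM at day 0 and 1.14, 6.56 and 0.473 CPM at day 3 (log2 change -2.90 ± 1.10, adjusted p = 0.0497 and 0.0703 to 0.164 without day 0 replicate 1, day 0 replicate 2, day 0 replicate 3, day 3 replicate 1 or day 3 replicate 3). Krtap3-2, a hair shaft protein gene, was among the largest falls, from 2.81, 20.4 and 2.62 to 0, 0.0538 and 0 CPM (log2 change -8.61 ± 2.07, adjusted p = 0.00433). Its wounds were near 0 and day 0 replicate 2 stood far above the other intact skin libraries, so the size of the fall is uncertain. Mogat1, an enzyme of glyceride synthesis, fell from 2.18, 2.28 and 0.974 to 0.0585, 0.215 and 0.0278 CPM (log2 change -4.11 ± 0.86, adjusted p = 0.00162). The number of sebaceous genes that fell was 1 without day 0 replicate 2, day 3 replicate 1 or day 3 replicate 3, and 7 without day 3 replicate 2, and that of hair follicle genes 0 to 5 over the same fits and 4 with the block.

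Fat transcripts were far lower in the wound. Of 20 adipocyte genes 15 fell, with a median log2 change of -3.85, and the groups did not overlap for 19, against 49.9% of all genes tested. Adipoq, the adiponectin gene, was at 837, 651 and 554 CPM at day 0 and 14.1, 83.9 and 4.73 CPM at day 3 (log2 change -4.31 ± 1.61, adjusted p = 0.0462 and 0.0637 to 0.149 without day 0 replicate 1, day 0 replicate 2, day 0 replicate 3, day 3 replicate 1 or day 3 replicate 3). Slc2a4, the insulin-responsive glucose transporter, went from 108, 70.6 and 116 to 1.76, 4.87 and 1.14 CPM (log2 change -5.24 ± 1.07, adjusted p = 0.00144). Lipe, the hormone-sensitive lipase, fell from 253, 273 and 130.2 to 6.2, 27 and 6.79 CPM (log2 change -4.03 ± 0.89, adjusted p = 0.00243). Cfd, the adipokine adipsin, fell from 131, 81.3 and 97.3 to 1.76, 5.92 and 1.03 CPM (log2 change -5.15 ± 1.17, adjusted p = 0.0029). Slc2a4, Lipe and Cfd kept their call without any 1 library. Lep, the leptin gene, was at 2045, 2355 and 671 CPM at day 0 and 30.1, 243 and 5.4 CPM at day 3, and although no wound reached an intact skin value it did not pass (log2 change -4.19 ± 1.87, adjusted p = 0.0897, and 0.0132 with the block). Day 3 replicate 2 kept the most fat transcripts of the wounds. The count of falling genes was 6 without day 3 replicate 1, 7 without day 3 replicate 3 and 9 without day 0 replicate 1, and 19 with the block.

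Some genes of lipid synthesis and of the response to metabolic hormones also fell. Of 18 genes of fatty acid and sterol synthesis 7 fell and none rose, 1 fell without day 3 replicate 1 or replicate 3, and 4 fell without day 0 replicate 1 or replicate 2. Srebf1, the master factor of the pathway, held its call, from 91.8, 94.3 and 73.2 to 25.4, 38.3 and 24.6 CPM (log2 change -1.55 ± 0.27, adjusted p = 0.000367). Fasn, the fatty acid synthase, was at 629, 893 and 234 CPM at day 0 and 87.5, 177 and 42.2 CPM at day 3 (log2 change -2.52 ± 0.71, adjusted p = 0.0113 and 0.0504 to 0.0556 without day 3 replicate 1 or day 3 replicate 3). Of 14 genes of the insulin and leptin axis, which Leprdb/db impairs in both groups, 9 fell and none rose, with a median log2 change of -1.54. Foxo1, the factor that insulin inactivates, went from 127, 96.8 and 102 to 21.8, 42.5 and 27.8 CPM (log2 change -1.82 ± 0.30, adjusted p = 0.000253). Pik3r1, a subunit of the kinase under the insulin receptor, fell from 267, 218 and 276 to 61.9, 94.7 and 59.3 CPM (log2 change -1.82 ± 0.34, adjusted p = 0.000759). Insr, the receptor itself, fell from 124, 117 and 117 to 53.4, 62.9 and 55.7 CPM (log2 change -1.06 ± 0.22, adjusted p = 0.00161). For all 3 the groups did not overlap. Lepr was at 4.93, 7.51 and 4.17 CPM at day 0 and 2.49, 5.08 and 1.36 CPM at day 3 (log2 change -0.89 ± 0.73, adjusted p = 0.363). Socs3, which blocks leptin and cytokine receptors, was at 11.8, 27.7 and 22.4 CPM at day 0 and 103, 54.2 and 88.2 CPM at day 3, without overlap, and missed the threshold (log2 change 1.99 ± 0.76, adjusted p = 0.0506).

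Skeletal muscle genes had the lowest median log2 change of the 43 lists, -5.06. Of 18, 16 fell, and for all 18 no wound reached the lowest intact skin library, against 25.4% of all genes tested. Acta1, the actin of muscle fibres, was at 5411, 2903 and 7741 CPM at day 0 and 111, 252 and 79 CPM at day 3 (log2 change -5.18 ± 1.85, adjusted p = 0.0376 and 0.0571 to 0.12 without day 0 replicate 1, day 0 replicate 3, day 3 replicate 1, day 3 replicate 2 or day 3 replicate 3). Ckm, the muscle creatine kinase, was at 859, 387 and 1177 CPM at day 0 and 11.6, 23 and 5.73 CPM at day 3 (log2 change -5.91 ± 2.11, adjusted p = 0.038 and 0.0618 to 0.121 without day 0 replicate 1, day 0 replicate 3, day 3 replicate 1, day 3 replicate 2 or day 3 replicate 3). Tcap, which anchors titin, was at 213, 139 and 297 CPM at day 0 and 3.6, 5.62 and 2.31 CPM at day 3 (log2 change -5.81 ± 1.70, adjusted p = 0.0136 and 0.0581 to 0.0584 without day 3 replicate 1 or day 3 replicate 3). The 16 calls depended on the libraries kept: 1 gene was called without day 3 replicate 1 or without day 3 replicate 3, 6 without day 0 replicate 1 and 5 without day 0 replicate 3, whereas all 18 were called with the block. Day 0 replicate 2 had the lowest intact skin level of each gene but Myh1 and Myh2. Mylk4, Mstn and Ppp1r3c were among the 15 largest falls. Mylk4, a kinase of striated muscle, went from 206, 89.1 and 315 to 0.322, 0.645 and 0.195 CPM (log2 change -9.02 ± 2.10, adjusted p = 0.00354). Mstn, the growth inhibitor myostatin, fell from 195, 52.5 and 295 to 0.615, 0.914 and 0.167 CPM (log2 change -8.31 ± 1.87, adjusted p = 0.00281). Ppp1r3c, which targets a phosphatase to glycogen, fell from 399, 171 and 626 to 2.87, 4.44 and 1.11 CPM (log2 change -7.15 ± 1.18, adjusted p = 0.000274). Aqp4, Scn4b, Tmem233, Lrrc30, Lrrc38, Smco1 and Dhrs7c also fell, by between 6.83 and 8.45 on the log2 scale.

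Of 10 genes of muscle fibre regeneration tested, 2 rose and 1 fell, 20% and 10% against 17.5% and 17.1% of all genes tested. Without day 3 replicate 2 the falls were 2. Mymk, which lets myoblasts fuse, rose from 0.0551, 0.055 and 0.0609 to 0.351, 7.15 and 2.48 CPM (log2 change 5.79 ± 1.69, adjusted p = 0.0135). Chrng, the fetal subunit of the acetylcholine receptor, rose from 0, 0.0275 and 0.0304 to 0.498, 4.06 and 1.39 CPM (log2 change 6.47 ± 1.85, adjusted p = 0.0135 and 0.0524 without day 0 replicate 1). The myogenic factor Myog was at 1.63, 1.57 and 3.07 CPM at day 0 and 1.84, 24.6 and 9.18 CPM at day 3 (log2 change 2.50 ± 1.06, adjusted p = 0.0746). Day 3 replicate 2 had the highest level of all 3. Myh8, the perinatal myosin, fell (log2 change -4.76 ± 1.53, adjusted p = 0.0226 and 0.0506 to 0.0881 without day 0 replicate 3, day 3 replicate 1 or day 3 replicate 3).

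Collagen and matrix genes rose in 18 of 24 cases and fell in 1, with a median log2 change of 1.74. Col1a1 was at 416, 707 and 171 CPM at day 0 and 3045, 2252 and 4483 CPM at day 3 (log2 change 2.92 ± 0.49, adjusted p = 0.000317). Col3a1, the collagen laid down early in repair, was at 882, 1949 and 372 CPM at day 0 and 10330.2, 5038 and 12049.8 CPM at day 3 (log2 change 3.10 ± 0.52, adjusted p = 0.000293). Fibronectin, Fn1, rose from 81.8, 190.2 and 54.4 to 2234, 708 and 1631 CPM (log2 change 3.81 ± 0.58, adjusted p = 0.000134). Tnc, the matrix protein tenascin C of wounds and growing tissue, went from 8.43, 21.2 and 9.19 to 562, 803 and 249.8 CPM (log2 change 5.38 ± 0.86, adjusted p = 0.000207). Fbn1, which forms microfibrils, rose from 81.6, 172 and 37.8 to 2862, 843 and 2821 CPM (log2 change 4.48 ± 0.71, adjusted p = 0.000187). Enzymes that mature collagen rose with it, Loxl2 from 34.5, 67.9 and 18.8 to 817, 412 and 783 CPM (log2 change 4.05 ± 0.44, adjusted p = 1.09e-05). P4ha3 rose from 0.138, 0.771 and 0.122 to 16.2, 13 and 28.9 CPM (log2 change 5.79 ± 0.60, adjusted p = 7.57e-06). No intact skin library reached a wound library for these 7 genes. The anchoring collagen gene of the epidermal junction, Col7a1, was at 225, 133 and 185 CPM at day 0 and 17.4, 91 and 17.7 CPM at day 3 (log2 change -2.11 ± 0.83, adjusted p = 0.0558), and Col15a1, of vessel and muscle basement membranes, was the 1 that fell (log2 change -2.26 ± 0.74, adjusted p = 0.0254 and 0.056 to 0.104 without day 0 replicate 1, day 0 replicate 2, day 3 replicate 1 or day 3 replicate 3). Of the 18 rises, 14 kept their call without any 1 library.

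Fibroblast genes did not move as 1 group. Of 18 genes of resident fibroblasts 8 rose and 3 fell, and 4 rose and 2 fell with the block. Pdgfra, their receptor for platelet-derived growth factor, rose from 43.6, 81.8 and 18.7 to 288, 169 and 287 CPM (log2 change 2.37 ± 0.42, adjusted p = 0.000448). Mfap5, a microfibril protein, rose from 28.1, 38.1 and 11.9 to 352, 121 and 343 CPM (log2 change 3.38 ± 0.53, adjusted p = 0.000192). Ly6a rose from 157, 140.3 and 136 to 838, 483 and 1305 CPM (log2 change 2.60 ± 0.46, adjusted p = 0.000501). Gsn, the actin-severing gelsolin, which muscle and fat also make, fell from 2121, 3141 and 1039.99 to 181, 307 and 286 CPM (log2 change -3.03 ± 0.65, adjusted p = 0.00213). The number that rose was 5 without day 0 replicate 3 or day 3 replicate 3, and the number that fell was 1 without day 0 replicate 1, day 0 replicate 2, day 3 replicate 1 or day 3 replicate 3. Sfrp2, a Wnt modulator of fibroblasts, rose from 3.86, 4.1 and 1.83 to 125, 64.4 and 185 CPM (log2 change 5.26 ± 0.55, adjusted p = 8.35e-06), 1 of 2 genes that rose among 19 of Wnt, BMP and hedgehog signalling. There 2 fell as well, and each count was 10.5% of the 19, against 17.5% and 17.1% of all genes tested. The falls were 9 without day 3 replicate 2, and 1 rose and 1 fell with the block or without any other library.

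Of 17 contractile and myofibroblast genes 8 fell and 5 rose. Those that fell included Tpm1, a tropomyosin gene, from 2245, 1288 and 3525 to 318, 303 and 199 CPM (log2 change -3.11 ± 0.55, adjusted p = 0.000483), and Lmod1, from 26.6, 12.9 and 35.2 to 0.644, 3.39 and 0.473 CPM (log2 change -4.05 ± 0.85, adjusted p = 0.00171). Among intact skin libraries Tpm1 and Lmod1 were lowest in day 0 replicate 2, as was the sum of skeletal muscle genes. The part of muscle in these changes was not tested. Cthrc1, Lrrc15 and Inhba were among the genes of the list that rose. Cthrc1, a secreted protein of matrix-producing fibroblasts, was at 2.07, 3.94 and 0.913 CPM at day 0 and 189, 112 and 268 CPM at day 3 (log2 change 6.36 ± 0.61, adjusted p = 5.14e-06). Lrrc15 was at 0.799, 2.2 and 0.761 CPM at day 0 and 53.7, 57.3 and 83.5 CPM at day 3 (log2 change 5.69 ± 1.28, adjusted p = 0.00276). Inhba, which encodes a subunit of activin A, rose from 4.63, 8.31 and 4.14 to 124, 39.8 and 33.8 CPM (log2 change 3.53 ± 0.89, adjusted p = 0.00575). Acta2, the smooth muscle actin by which myofibroblasts are usually defined, was at 106, 163 and 58.9 CPM at day 0 and 27.2, 129 and 32.1 CPM at day 3, overlapping (log2 change -0.80 ± 0.46, adjusted p = 0.187). The falls numbered 4 without day 3 replicate 1 or without day 3 replicate 3.

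Of 24 matrix proteases and their inhibitors 12 rose and 3 fell. Of the 12 rises, 7 kept their call without any 1 library, and 8 genes rose with the block. Timp1, an inhibitor of metalloproteinases, was at 1.98, 6.14 and 1.95 CPM at day 0 and 399.9, 167 and 231 CPM at day 3 (log2 change 6.31 ± 0.81, adjusted p = 3.33e-05). Plat, the tissue plasminogen activator that dissolves fibrin, rose from 12, 17.4 and 8.89 to 248, 87.5 and 208 CPM (log2 change 3.82 ± 0.39, adjusted p = 7.57e-06). Among metalloproteinases Mmp14, which is anchored in the membrane, rose from 50.4, 86.6 and 46.5 to 213, 150.5 and 226 CPM (log2 change 1.68 ± 0.26, adjusted p = 0.000186). Mmp13, a collagenase, rose from 0.358, 2.06 and 0.396 to 7.43, 13.5 and 7.51 CPM (log2 change 3.33 ± 0.87, adjusted p = 0.0074). Mmp9, found in neutrophil granules and keratinocytes, was at 3.36, 4.65 and 1.83 CPM at day 0 and 6.09, 11.4 and 8.37 CPM at day 3, without overlap (log2 change 1.39 ± 0.56, adjusted p = 0.0624). Timp4, the inhibitor made in fat and muscle, went from 168, 142 and 54.8 to 1.32, 10.5 and 0.751 CPM (log2 change -4.86 ± 1.40, adjusted p = 0.0124 and 0.0534 to 0.060 without day 3 replicate 1 or day 3 replicate 3). The 3 falls were 1 without day 3 replicate 1 and 0 without day 3 replicate 3.

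Vessel genes were not called as a group, and 1 of 20 endothelial genes fell, 5% against 17.1% of all genes tested. Pecam1 was at 75.9, 98.5 and 36.3 CPM at day 0 and 10.9, 121 and 18.6 CPM at day 3 (log2 change -0.48 ± 0.80, adjusted p = 0.676). Cdh5 was at 73.6, 89 and 31.3 CPM at day 0 and 11, 105 and 16.2 CPM at day 3 (log2 change -0.55 ± 0.75, adjusted p = 0.604), with day 3 replicate 2 above every intact skin library and the other wounds below them all. Without day 3 replicate 2, 13 of the 20 fell, and with the block 2. The 1 called with all libraries was Cldn5, of tight junctions, from 20.3, 22 and 15.9 to 0.849, 8.98 and 1.17 CPM (log2 change -2.40 ± 0.78, adjusted p = 0.0245 and 0.0532 to 0.0981 without day 0 replicate 1, day 0 replicate 2, day 3 replicate 1 or day 3 replicate 3). Of 16 genes of vessel activation and sprouting 2 rose and none fell, 12.5% and 0% against 17.5% and 17.1% of all genes tested. Without day 3 replicate 2 there were 2 falls. Vcam1, to which leukocytes adhere and which macrophages and fibroblasts can carry, rose from 14.1, 23.8 and 12.3 to 94.8, 49.6 and 81 CPM (log2 change 2.17 ± 0.37, adjusted p = 0.000346). Apln, made by sprouting tip cells, rose from 5.04, 4.95 and 5.48 to 33.6, 44.7 and 22.6 CPM (log2 change 2.70 ± 0.39, adjusted p = 9.05e-05). Vegfa, the main growth factor of vessels, was at 86.8, 75.7 and 107 CPM at day 0 and 41.1, 40.2 and 25.8 CPM at day 3, lower in every wound but not past the threshold (log2 change -1.33 ± 0.71, adjusted p = 0.158).

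Growth factors fell more often than they rose, 10 against 4 of 25. Among those that bind the receptor for epidermal growth factor, Egf went from 19.2, 12.8 and 33 to 1.76, 2.53 and 2.2 CPM (log2 change -3.32 ± 0.55, adjusted p = 0.000277). Btc fell from 10.3, 68.7 and 7.21 to 0.907, 1.91 and 0.501 CPM (log2 change -4.69 ± 0.91, adjusted p = 0.00102, log2 change -2.95 without day 0 replicate 2). Bmp2, a bone morphogenetic protein, fell from 43.3, 56.8 and 66.9 to 9.31, 15.4 and 11.4 CPM (log2 change -2.21 ± 0.36, adjusted p = 0.000253). Fgf18 fell from 11.3, 12.7 and 18.9 to 2.52, 3.39 and 1.67 CPM (log2 change -2.50 ± 0.63, adjusted p = 0.00574). Those that rose included Pdgfc, from 23.6, 22 and 20.3 to 152, 57.3 and 109.9 CPM (log2 change 2.28 ± 0.46, adjusted p = 0.00132). Fgf7, by which fibroblasts act on keratinocytes, was at 7.6, 9.88 and 5.66 CPM at day 0 and 55.2, 27 and 30.5 CPM at day 3 (log2 change 2.28 ± 0.73, adjusted p = 0.0229 and 0.0643 to 0.0908 without day 0 replicate 1, day 0 replicate 3 or day 3 replicate 1). Tgfb1, which drives matrix production, was at 11.7, 27.4 and 11.3 CPM at day 0 and 34.4, 29.9 and 37.4 CPM at day 3 (log2 change 1.01 ± 0.30, adjusted p = 0.0142 and 0.0678 to 0.0714 without day 0 replicate 1 or day 0 replicate 3). The rises were 2 without day 0 replicate 1 or day 0 replicate 3, and the falls 6 without day 3 replicate 1 or day 3 replicate 3.

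Cell division genes rose nearly throughout. Of 24, 23 rose and none fell, with a median log2 change of 2.29, and the same number was called in each of the fits tried. Mki67, present in all dividing cells, was at 88.5, 78 and 72.7 CPM at day 0 and 327, 293 and 289 CPM at day 3 (log2 change 1.93 ± 0.40, adjusted p = 0.00157). Cdk1, the kinase of mitosis, went from 15.1, 12.7 and 12.1 to 114, 88.4 and 77.9 CPM (log2 change 2.81 ± 0.32, adjusted p = 1.30e-05). Plk1, which also drives mitosis, rose from 4.41, 2.64 and 2.37 to 31.3, 24.2 and 26.6 CPM (log2 change 3.12 ± 0.41, adjusted p = 3.96e-05). Rrm2, which supplies nucleotides for DNA synthesis, rose from 11.1, 14 and 8.8 to 140.4, 112 and 84.1 CPM (log2 change 3.31 ± 0.49, adjusted p = 0.000111). The lowest wound value exceeded the highest intact skin value for all 23, against 24.5% of all genes tested. Ccnd1, the cyclin of early G1, was the 1 not called, at 21.2, 31.9 and 43.6 CPM at day 0 and 33.9, 41.2 and 32.1 CPM at day 3 (log2 change 0.15 ± 0.52, adjusted p = 0.851).

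The same change was set beside that of the adalimumab arm, tested as the difference between the arms of the change from day 0 to day 3. Over all genes, 417 of 23083 passed, 1.81%, of which 54 had a higher and 363 a lower change in the adalimumab arm. Among the 24 cell division genes 20 had a lower change there. Mki67 was at 87.3, 362 and 323 CPM at day 0 and 101, 117 and 233 CPM at day 3 in that arm, and the difference of the log2 changes, adalimumab minus control, was -2.70 ± 0.55 (adjusted p = 0.0261). For Cdk1 it was -2.13 ± 0.42 (adjusted p = 0.0261) and for Plk1 -2.66 ± 0.54 (adjusted p = 0.0261). All adalimumab wounds lay below all control wounds, and intact skin replicates 2 and 3 of that arm were above all control intact skin libraries for each of these 3 genes. Those 2 intact skin libraries also stood apart in their sums of hair follicle genes, 3986 and 20635 CPM against 310 CPM in replicate 1 of that arm and 236 to 343 CPM in control intact skin. Their sums of melanocyte genes were 781 and 881 CPM against 42.1 CPM in replicate 1 and 45.3 to 57.9 CPM in control intact skin, and those of cell division genes 1679 and 1521 CPM against 500.1 CPM in replicate 1 and 429 to 487 CPM in control intact skin. The part of these differences in the arm difference was not tested. With edgeR no difference was called with the block, where 3160 genes had an unadjusted p under 0.05, nor without control day 0 replicate 1, 2 or 3 or control day 3 replicate 1, where 3597 to 4489 did. DESeq2 called 1756 with all libraries. Without control day 3 replicate 2 there were 1316, and without control day 3 replicate 3 there were 244.

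**Figure D5:**
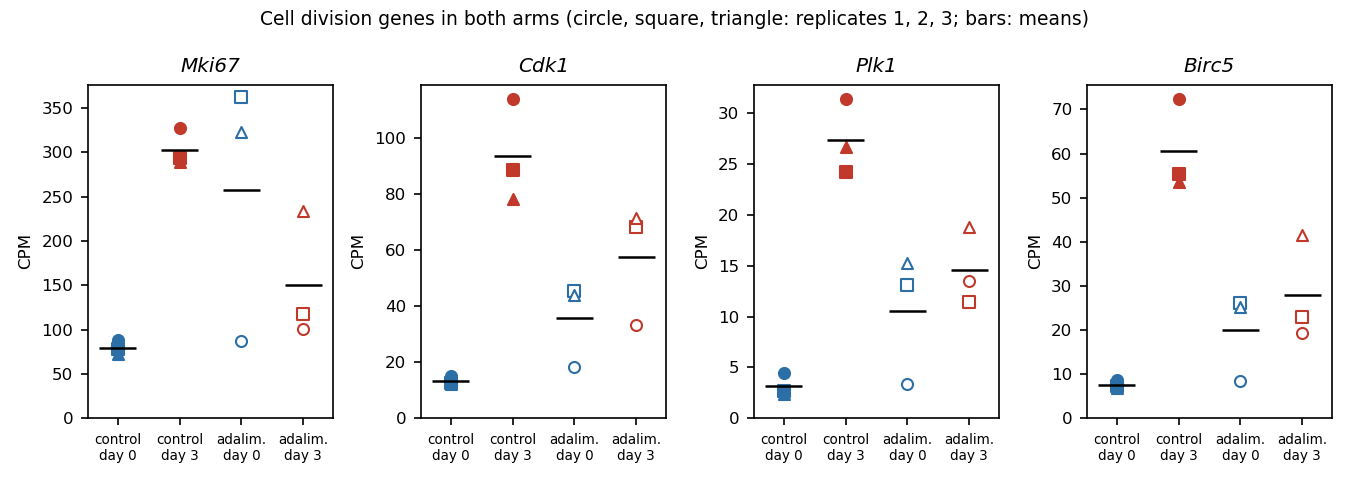
CPM of Mki67, Cdk1, Plk1 and Birc5 in the day 0 and day 3 libraries of the control and adalimumab arms, 1 point a library, with marker shapes for the label numbers and black bars for group means. Control intact skin libraries cluster low (Mki67 at 72.7 to 88.5 CPM) while adalimumab intact skin libraries spread from 87.3 to 362 CPM for Mki67.

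Nuclear genes of respiration and fatty acid oxidation fell in 20 of 24 cases, with a median log2 change of -1.05. Acadm, which oxidises fatty acids, fell from 221, 183 and 224 to 56.8, 74.5 and 54 CPM (log2 change -1.76 ± 0.36, adjusted p = 0.00143). Ppargc1a, the coactivator of mitochondrial growth, fell from 13.3, 7.95 and 18.4 to 0.468, 0.672 and 0.139 CPM (log2 change -4.94 ± 1.02, adjusted p = 0.00154). Cox7a1, the subunit found in muscle, fell from 28.5, 14.6 and 44.6 to 1.26, 2.53 and 1.72 CPM (log2 change -3.99 ± 0.65, adjusted p = 0.000247). Day 0 replicate 2, lowest of the intact skin libraries in muscle transcripts, was also lowest for Ppargc1a and Cox7a1, and the part of muscle in these changes was not tested. None of 15 genes encoded in the mitochondrion itself passed with edgeR, where 1 had an unadjusted p under 0.05, and DESeq2 called 1 as lower. mt-Co1 was at 40008, 25205 and 54234 CPM at day 0 and 28909, 45464 and 31908 CPM at day 3 (log2 change -0.17 ± 0.46, adjusted p = 0.809). Of 23 genes of glycolysis and hypoxia, 4 rose and 3 fell, 17.4% and 13.0% against 17.5% and 17.1% of all genes tested. The rises were 2 without day 0 replicate 3 or day 3 replicate 1 or with the block. Pfkfb3, a regulator of glycolysis, fell from 259.99, 307 and 205 to 53.2, 53.6 and 59.6 CPM (log2 change -2.21 ± 0.45, adjusted p = 0.00144). Bnip3, a target of hypoxia, fell from 188, 132 and 173 to 35.1, 38.1 and 34.1 CPM (log2 change -2.20 ± 0.51, adjusted p = 0.00351), and Pgam1 rose from 124, 166 and 117 to 362, 248 and 248 CPM (log2 change 1.07 ± 0.28, adjusted p = 0.00679). Hif1a itself was at 162, 279.6 and 229 CPM at day 0 and 784, 358 and 360.3 CPM at day 3 (log2 change 1.16 ± 0.39, adjusted p = 0.0267, but 0.108 with the block and 0.063 to 0.206 without day 0 replicate 1, day 0 replicate 3 or day 3 replicate 1).

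Clock genes fell in 10 of 16 cases and none rose, with 6 called without day 3 replicate 1. Nr1d1, a repressor within the clock, went from 49.1, 59.6 and 85.3 to 15, 20.3 and 7.68 CPM (log2 change -2.17 ± 0.45, adjusted p = 0.00158). Tef fell from 129, 95.8 and 154 to 31.8, 50.4 and 25.5 CPM (log2 change -1.82 ± 0.31, adjusted p = 0.000347). Cry2 fell from 52.3, 47.9 and 50.1 to 16.4, 20 and 17.6 CPM (log2 change -1.48 ± 0.41, adjusted p = 0.00956). The activators Clock and Arntl did not pass. Clock was at 96.6, 94.5 and 97.3 CPM at day 0 and 109, 81.9 and 83.3 CPM at day 3 (log2 change -0.07 ± 0.18, adjusted p = 0.774). Arntl was at 42.7, 50.8 and 53 CPM at day 0 and 48.1, 29 and 50 CPM at day 3 (log2 change -0.20 ± 0.22, adjusted p = 0.499). The sources used here do not give the time of day of a harvest. Among 16 stress genes 5 rose and 7 fell. Hspa5 and Hsp90b1, chaperones of the endoplasmic reticulum, rose, Hspa5 from 435, 700.4 and 437 to 2156, 1240.1 and 1480.5 CPM (log2 change 1.63 ± 0.29, adjusted p = 0.000424). Hsp90b1 rose from 304, 393 and 329.8 to 1733, 918 and 1389 CPM (log2 change 1.98 ± 0.23, adjusted p = 1.78e-05). Hspa1b, a cytosolic heat shock gene, spread widely in intact skin. It was at 59.8, 413 and 1031 CPM at day 0 and 28.2, 41.6 and 27.3 CPM at day 3 (log2 change -3.95 ± 1.04, adjusted p = 0.00765, but 0.0661 with the block), and it shares most of its sequence with Hspa1a. With the block 3 of the stress genes rose and 2 fell, and without day 3 replicate 3 the falls were 4.

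The neurofilament genes Nefl and Nefm, known as structural proteins of nerve axons, were among the 15 largest rises. Nefl had no counts in intact skin and stood at 11.1, 4.3 and 5.56 CPM in the wounds, at least 246-fold higher over the floor of 3 counts (adjusted p = 2.23e-05). Nefm was at 0.0276, 0.055 and 0 CPM at day 0 and 8.08, 1.77 and 2.59 CPM at day 3 (log2 change 7.03 ± 1.10, adjusted p = 0.00018). Schwann cell genes, from the cells that wrap axons, fell in 3 of 12 cases and rose in none. The falls were 25%, against 17.1% of all genes tested, and 5 fell with the block. S100b went from 8.4, 8.17 and 4.29 to 1.08, 1.29 and 0.278 CPM (log2 change -2.97 ± 0.78, adjusted p = 0.00721) and the myelin gene Mbp from 63.5, 69.5 and 64.7 to 26.7, 25 and 22.1 CPM (log2 change -1.42 ± 0.40, adjusted p = 0.0114). The defining Schwann cell factor Sox10 was at 2.01, 2.2 and 1.52 CPM at day 0 and 0.732, 0.699 and 0.556 CPM at day 3, without overlap (log2 change -1.52 ± 0.77, adjusted p = 0.133, and 0.0221 with the block).

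Further genes with the largest rises were Prl2c3, of the prolactin family, from 0.0276, 0.11 and 0 to 5.91, 9.92 and 3.37 CPM (log2 change 6.98 ± 1.03, adjusted p = 0.00011). Padi4, which converts arginine to citrulline in histones of neutrophils, rose from 0.0827, 0.303 and 0.0913 to 26.2, 9.22 and 40.7 CPM (log2 change 7.28 ± 1.40, adjusted p = 0.000935). Slfn1, of the schlafen family, rose from 0.634, 0.523 and 0.639 to 77.4, 33.5 and 126 CPM (log2 change 7.04 ± 0.53, adjusted p = 7.33e-07). Prl2c3 and Slfn1 have close paralogs, so reads may be shared. Among acute phase and antimicrobial genes, 17 tested, 3 rose and 4 fell, 17.6% and 23.5% against 17.5% and 17.1% of all genes tested. Ptx3, a soluble pattern receptor, rose from 10.2, 18.7 and 13.2 to 633, 97.5 and 189 CPM (log2 change 4.45 ± 1.06, adjusted p = 0.00417). Hp, the haptoglobin gene, which fat expresses, was at 2442, 2705 and 1038 CPM at day 0 and 49.4, 433 and 25.7 CPM at day 3 (log2 change -3.61 ± 1.11, adjusted p = 0.0183 and 0.0681 to 0.0804 without day 3 replicate 1 or day 3 replicate 3). The rises were 1 without day 0 replicate 1 or day 0 replicate 3 and the falls 1 without day 3 replicate 1 and 2 without day 3 replicate 3. Haemoglobin transcripts, carried by blood in the sample, were not called, with Hba-a1 at 473, 467 and 196 CPM at day 0 and 849, 661 and 69.7 CPM at day 3 (log2 change 0.48 ± 0.79, adjusted p = 0.676), and day 3 replicate 3 lowest. Of 8 B cell genes 1 rose, 12.5% against 17.5% of all genes tested. It was Cd79b, from 0.11, 0.44 and 0.152 to 0.702, 0.457 and 2.92 CPM (log2 change 2.51 ± 0.78, adjusted p = 0.0185, but 0.0928 with the block and 0.0689 to 0.21 without day 0 replicate 1, day 0 replicate 3 or day 3 replicate 3).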

How the data were processed

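The deposited table holds whole-number read counts per gene for 23 libraries of mouse skin. Per the submitters' processing notes the tools of the authors include STAR and the genome build is GRCm39. Neither the counting program nor its annotation or strand setting is named there. Every column was matched to a library by its label, and 0 columns were left unused. The members and gene lists described here were chosen with earlier results of these data known.

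Counts were analysed as deposited with edgeR 4.0.16 in R 4.3.3, using TMM scaling, a filter by group (minimum count 10, minimum total 15) that kept 23083 of 56379 genes, and a quasi-likelihood fit of group means to all 23 libraries (residual degrees of freedom 15), with Benjamini-Hochberg adjustment over all genes. Labels do not say that libraries of a group came from separate animals, so p-values measure the spread between these libraries. CPM values use TMM-scaled library sizes. The biological coefficient of variation was 42.49%. The fit was tested on simulated data with known changes before use. Alternatives were DESeq2 1.42.0, limma 3.58.1 (voom), other size factors, no or a stricter filter, removal of mitochondrial genes, each library or label number left out, and the label number as a block. A floor of 3 counts over a group stood for a group at 0.

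The pairing was taken from the replicate numbers and from column names that share a further number across both days, read as shared animals. Deviations from group means of same-numbered libraries correlated at -0.136, -0.079 and -0.152, so the expression values do not themselves show it. Beside a gene or list, the block is the 12-library fit unless the 6 control libraries are named, and its value is given where it changed a call of a named gene or moved a count by over 1.5 times.

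Named genes were the 15 largest changes in each direction among genes that were called, did not overlap, had a mean log2 CPM of at least 1 and kept their call without any 1 library, the up to 5 members of each list with the smallest adjusted p, 20 genes listed by name, and members needed by role. Promoter sequences came from RefSeq (GRCm38.p6) by gene symbol. Some genes counted in the lists are not reported here by name.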

Additional observations from a re-analysis of the deposited data

Results flagged for a closer look

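The change from intact skin to the day 3 wound differed between the adalimumab and control arms for 417 genes, by edgeR's test of the difference itself. Cell division genes made up 20 of these, out of 24 tested, against 1.81% of all 23083 genes tested. The difference for Mki67, adalimumab minus control, was -2.70 on the log2 scale. It holds the day 0 levels as well as the wounds: adalimumab intact skin replicates 2 and 3 summed to 1679 and 1521 CPM over cell division genes, against 429 to 487 CPM in control intact skin. The same 2 libraries had hair follicle sums of 3986 and 20635 CPM against 236 to 343 CPM and melanocyte sums of 781 and 881 CPM against 45.3 to 57.9 CPM, and the part of these in the difference was not tested. With edgeR no such difference was called with the label number as a block, or without control day 0 replicate 1, 2 or 3 or control day 3 replicate 1. DESeq2 called 1756 genes with all libraries.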

How the results depend on the processing

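The count of 7986 changed genes was 5148 with the replicate block over 12 libraries and 4049 with the replicate block over the 6 control libraries, and ranged from 5115 to 8834 with 1 library left out and from 3444 to 8179 with 1 label number left out. It lay within 1.5 times of 7986 under each of the other settings tried. The 417 differences between the arms became 0 with the replicate block, 1756 with DESeq2, 221 with limma voom and 225 without a filter, and ranged from 0 to 1316 with 1 library and from 0 to 690 with 1 label number left out. The cause was not tested. Of 258 named genes, 207 were called, 182 of them also with the 12-library block, 175 with the 6-library block and 159 without any 1 library. Among the 207 called genes direction reversed for 2, both without control day 0 replicate 2. Changes of sign in genes that were not called were not counted. With 1 library left out, the log2 change of Egr1 ranged from -2.99 to 0.0777 and that of Tnf from -2.40 to 0.0516. In the 6-library block, counts of list members also moved for genes that rose in glycolysis and hypoxia (4 to 0, with 9 of 23 at an unadjusted p under 0.05, and 4 with DESeq2), resident fibroblasts (8 to 4) and stress (5 to 2), and for genes that fell in T cells (5 to 1), Langerhans and dendritic cells (5 to 3), mast cells (1 to 9), epidermal differentiation (13 to 20), stress (7 to 4) and nuclear respiration (20 to 12). Falls called by limma voom were 1 against 5 for Langerhans and dendritic cell, 2 against 5 for barrier lipid, 4 against 1 for mast cell and 7 against 4 for sebaceous genes. DESeq2 called 6 mast cell, 7 basal epidermal, 5 glycolysis and hypoxia and 4 Wnt, BMP and hedgehog genes as lower, against 1, 4, 3 and 2. Of 8 melanocyte genes edgeR called 0 (1 at an unadjusted p under 0.05), DESeq2 called 1 as lower, and the 12-library block 2. With 3 libraries a group, a missed threshold does not show that a gene did not differ. Label numbers of both days pair the libraries only as far as a number marks an animal.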
